A study of Mus musculus with 30 samples.

Results

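A group of 9 genes of arginine use and itaconate synthesis was followed through 8 sorted populations of blood and brain cells from mice carrying a glioma: Arg1, Arg2, Nos2, Slc7a2, Ass1, Odc1, Azin1, Gatm and Irg1. These 9 members were chosen by name from the pathways they belong to, and all 9 were among the 45317 genes counted. The mice (strain C57BL6.CCR2RFP/WT, 12 to 18 weeks old) carry a red fluorescent reporter in one copy of the chemokine receptor gene Ccr2, in every population compared. The tumors grew in the brain from GL261, a murine glioma line given a membrane-anchored GFP that neighbouring cells can take up. Mice of both sexes were used, and the sex of each mouse is not given in the sources used here. Blood gave Ly6Chigh and Ly6Clow monocytes, the brain gave glioma monocytes, CCR2high macrophages and CCR2low macrophages, and each brain population was sorted as GFPpos or GFPneg. Animals are named by their numbers, 22, 23, 24 and 26. Each blood population was sorted from mice 22, 23 and 24 (n = 3), each glioma monocyte population from mice 22, 24 and 26 (n = 3) and each macrophage population from all 4 (n = 4), which gave 6 blood and 22 brain replicates. The blood came from the same tumor-bearing mice, and no brain or blood of a mouse without a tumor is part of the comparisons.

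Arginine is the shared substrate of several enzymes in myeloid cells. Arginase cleaves it to ornithine and urea, and inducible nitric oxide synthase oxidizes it to citrulline and nitric oxide. Ornithine feeds polyamine and proline synthesis, while another branch joins arginine to glycine on the way to creatine. Arg1 and Nos2 have long served as the textbook markers of alternatively (M2) and classically (M1) activated mouse macrophages. Irg1, also named Acod1, makes itaconate from the citric acid cycle intermediate cis-aconitate in activated macrophages.

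A replicate held between 1553616 and 5689644 counts on genes. Levels are given as CPM, which relates a gene's counts to the library's total after scaling by the TMM method of edgeR, which evens out libraries of different composition. Microglia were to be kept out of the brain sorts by their lower CD45 and CD11b. The monocyte and macrophage markers (Ptprc, Csf1r, Itgam and 7 others) were all detected, with summed levels of 4640 to 11564 CPM in blood and 5207 to 11733 CPM in brain replicates. Summed microglia markers were at 23.8 to 132 CPM in blood, where Sall1, Siglech and Slc2a5 were at 0, and at 1167 to 7509 CPM in brain. Genes that respond to tissue dissociation summed to 555 to 1737 CPM in blood and 3464 to 14494 CPM in brain, so they differed between the compartments as the members did, and their part in the results was not tested. T and NK cell markers summed to 18.2 to 154 CPM in Ly6Chigh monocytes, 772 to 1366 CPM in Ly6Clow monocytes and 283 to 1771 CPM in brain. Dendritic cell markers summed to 100.2 to 219 CPM in Ly6Chigh monocytes, 578 to 1895 CPM in Ly6Clow monocytes, where mouse 23 was the highest, and 109 to 723 CPM in brain, and the part of either list was not tested. In sorted bulk samples, fewer cells of a type and less RNA per cell cannot be told apart. The library of Ly6Clow monocytes from mouse 23 stood apart: 13.3% of its counts were synthetic spike-in RNA and only 6475 genes had 5 or more reads, against 9078 to 12340 in the other replicates that were sequenced once. An earlier library of the same sample held 0 counts of all 9 members and was left out. Where a call of a member turned on this replicate, the value without it is given beside it. The summed pair of libraries of GFPpos glioma monocytes of mouse 22 had 6969 and 11777 genes with 5 or more reads. Their spike-in shares were 8.68% and 1.29%, beside 5.16% in GFPpos glioma monocytes of mouse 24. Slc7a2 had 0 and 81 counts in the pair. Without TMM scaling, Irg1 was at 186 and 502 CPM, Ass1 at 69.6 and 150 CPM and Nos2 at 74.4 and 35.4 CPM. That leaves these members uncertain in that replicate of mouse 22, and the other members differed less.

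Promoter sequences from RefSeq were at hand for 4 of the 9 members: Irg1, Gatm, Odc1 and Ass1. The stretches of Irg1 and Gatm before the annotated start are shown because of how these genes ran over the populations. Both were called higher in every brain population than in either blood population. Their mean levels ordered glioma monocytes and macrophages in opposite ways. Neither gene was called between GFPneg glioma monocytes and GFPneg macrophages in the unpaired edgeR test. The Irg1 stretch lies at chr14:103046762-103046976 on the plus strand and the Gatm stretch at chr2:122611304-122611527 on the minus strand (GRCm38.p6). Capitals mark a match to GGANTTTCC, a form of the NF-kB site.
Irg1: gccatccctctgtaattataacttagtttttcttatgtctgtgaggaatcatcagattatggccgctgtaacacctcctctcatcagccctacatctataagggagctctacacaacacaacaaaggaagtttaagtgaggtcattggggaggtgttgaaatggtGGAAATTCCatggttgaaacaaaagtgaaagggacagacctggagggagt
Gatm: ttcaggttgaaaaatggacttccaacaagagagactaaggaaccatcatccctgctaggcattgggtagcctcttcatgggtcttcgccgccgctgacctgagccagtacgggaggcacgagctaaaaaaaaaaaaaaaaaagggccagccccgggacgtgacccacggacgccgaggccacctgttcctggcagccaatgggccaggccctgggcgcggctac
Each window of 300 bases, 250 before and 50 after the RefSeq start, was searched on both strands for TATAAA, GGANTTTCC, TTCNNNGAA, TTGCNNAA and TGANTCA, where N is any base. Irg1 held GGANTTTCC on the minus strand with its first base at position -85 from the RefSeq start, a motif found in 1.25% of 32851 promoters. It also held TATAAA on the plus strand at position -28, past the printed stretch, a motif of 13.6% of promoters. The windows of Gatm, Odc1 and Ass1 held none of these letters. TTCNNNGAA, TTGCNNAA and TGANTCA were in 8.3%, 10.8% and 7.81% of promoters and in none of the 4 windows. The Irg1 stretch was 43.3% G and C, the Gatm stretch 57.6%, and those of Odc1 and Ass1 77.2% and 75.4%.

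Arg1, the cytosolic arginase, lies on chromosome 10 at 24915221 to 24927484 (minus strand, GRCm38) with no annotated gene overlapping it. In blood it was all but absent: all 3 Ly6Chigh replicates had 0 counts, and the Ly6Clow replicates of mice 22, 23 and 24 had 0, 3 and 1 counts. In GFPneg glioma monocytes of mice 22, 24 and 26 it reached 290, 473 and 2648 CPM, and in GFPpos glioma monocytes 561, 646 and 1672 CPM. Every brain replicate lay above every blood replicate. In mice 22, 23, 24 and 26, GFPneg CCR2high macrophages had 293, 987, 360 and 1354 CPM and their GFPpos counterparts 269, 1547, 419 and 1558 CPM. GFPneg CCR2low macrophages had 170, 709, 284 and 1227 CPM, and GFPpos CCR2low macrophages 261, 1642, 573 and 1809 CPM. Each macrophage population thus held low values in mice 22 and 24 and high values in mice 23 and 26.

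Against the Ly6Chigh monocytes at 0, with a floor of 3 counts per library, Arg1 was at least 838-fold higher in GFPneg glioma monocytes. The bounds were 552-fold for GFPneg CCR2high and 440-fold for GFPneg CCR2low macrophages, with edgeR adjusted p of 4.63e-06, 5.40e-06 and 6.46e-06. Without the brain replicates of mouse 26 the bounds were 281-fold, 403-fold and 286-fold. Against the 4 counts of the Ly6Clow replicates together, the ratios were 2300 (95% exact Poisson interval 898 to 8443), 1514 (592 to 5558) and 1209 (472 to 4436), intervals that cover counting error only. The adjusted p of the 3 comparisons with Ly6Clow monocytes were 6.88e-06, 8.96e-06 and 1.13e-05. Of the 4 counts, 3 came from mouse 23. Without that replicate the ratios to the 1 remaining count were 6252 (1122 to 246951), 4116 (739 to 162574) and 3285 (590 to 129749), with adjusted p of 0.000236, 0.000273 and 0.000351.

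Arg2, the mitochondrial arginase, is on chromosome 12 at 79130777 to 79156301 (plus strand), where exons of Vti1b and Gm48780 overlap it on the other strand. Unlike Arg1 it was present in blood, at 12.9, 5.27 and 1.25 CPM in the Ly6Chigh replicates of mice 22, 23 and 24 and at 6.60, 106 and 6.22 CPM in the Ly6Clow replicates. The value of 106 CPM comes from the library with many spike-in counts. GFPneg glioma monocytes were tightly grouped at 69.2, 71.2 and 63.2 CPM, while GFPpos glioma monocytes had 64.0, 16.3 and 28.9 CPM in mice 22, 24 and 26. The macrophage populations ranged from 0.925 to 22.6 CPM, below every GFPneg glioma monocyte replicate. Arg2 rose in GFPneg glioma monocytes against Ly6Chigh monocytes by 3.44 ± 1.04 on the log2 scale (SE, edgeR adjusted p = 0.0270). This call was lost with the Ly6Chigh replicate of mouse 23 or 24 or the glioma monocyte replicate of mouse 22 or 24 left out (adjusted p = 0.107, 0.136, 0.0531 and 0.05), with spike-in scaling (0.122) or with GFPpos in place of GFPneg glioma monocytes (0.0700). In the CCR2high and CCR2low macrophages the differences from Ly6Chigh monocytes were 1.23 ± 0.95 and 0.41 ± 0.95 (adjusted p = 0.427 and 0.829). Against Ly6Clow monocytes the difference for glioma monocytes was 0.77 ± 0.93 (adjusted p = 0.618), and 3.38 ± 0.98 without mouse 23 (adjusted p = 0.0215). The difference was also called with spike-in scaling (4.38, adjusted p = 0.0227) and with only the first library of each sample (3.91, 0.0118). For CCR2high and CCR2low macrophages it was -1.43 ± 0.87 and -2.25 ± 0.90 (adjusted p = 0.247 and 0.0698), and 1.17 and 0.34 without mouse 23 (adjusted p = 0.381 and 0.833). The CCR2low macrophages were called lower by DESeq2 (adjusted p = 0.0440), and by edgeR without the Ly6Clow replicate of mouse 22 or 24 (0.0348 and 0.0241) or the CCR2low replicate of mouse 26 (0.0186).

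Nos2, the inducible nitric oxide synthase, is on chromosome 11 at 78920787 to 78960254 (plus strand) and had 0 counts in all 6 blood replicates. GFPneg glioma monocytes of mice 22, 24 and 26 had 79.3, 67.5 and 257 CPM, and GFPpos glioma monocytes 54.4, 37.5 and 139 CPM. GFPneg CCR2high macrophages of mice 22, 23, 24 and 26 had 32.2, 39.9, 13.2 and 135 CPM, and GFPpos CCR2high macrophages 21.7, 45.8, 12.1 and 209 CPM. In each of these populations mouse 26 was the highest. GFPneg CCR2low macrophages had 24.8, 21, 1.85 and 146 CPM, where 1.85 CPM stands for 4 counts, and GFPpos CCR2low macrophages had 28.1, 89.1, 22.7 and 169 CPM. Every brain replicate had Nos2 counts and no blood replicate did. Nos2 was at least 99.1-fold higher than in Ly6Chigh monocytes in GFPneg glioma monocytes, 40.5-fold in CCR2high and 35.7-fold in CCR2low macrophages (edgeR adjusted p = 0.00101, 0.00214 and 0.00239). Without the brain replicates of mouse 26 the bounds were 54.1-fold, 21-fold and 11.7-fold. Against Ly6Clow monocytes the bounds were 117-fold, 47.7-fold and 42.0-fold (adjusted p = 0.000818, 0.00186 and 0.00222).

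**Figure D1:**
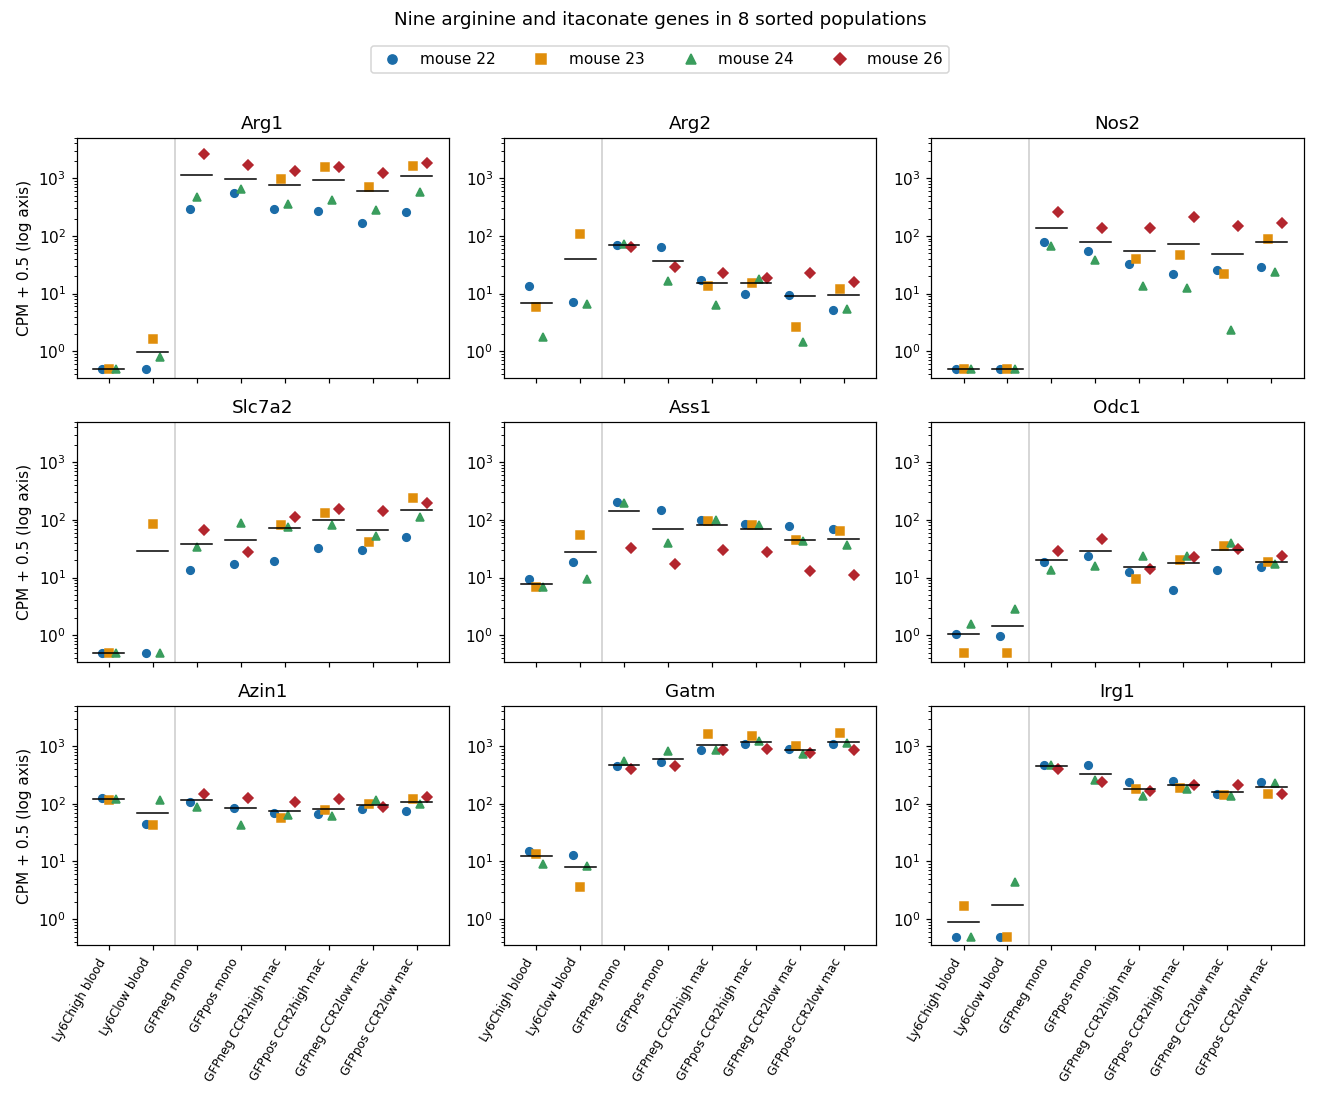
Level of each member in 8 sorted populations, as CPM + 0.5 on a log axis, with each point a replicate coloured by mouse and each bar a population mean (n = 3 for monocytes, n = 4 for macrophages). Arg1, Nos2, Odc1, Gatm and Irg1 were higher in every brain replicate than in every blood replicate, whereas Azin1 was at like levels in both, and the Slc7a2 and Arg2 points that stand out in Ly6Clow blood are those of mouse 23 at 84.1 and 106 CPM. Between single GFPneg brain and blood populations, 17.4% to 21.8% of all tested genes were higher in brain without overlap. That is a less strict condition than all brain against all blood replicates, for which no share is given here. Arg1, Nos2, Odc1 and Irg1 passed the filter on low counts only through the brain replicates.

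Both the M1 and the M2 enzyme gene were thus detected in every brain replicate, in bulk samples that do not show whether single cells held both. Per kilobase of annotated exon, the Arg1 level exceeded the Nos2 level in each of the 22 brain replicates, by 7.26-fold at the lowest, 22.5-fold at the median and 304-fold at the highest. The highest ratio was that of GFPneg CCR2low macrophages of mouse 24, where Nos2 had 4 counts. By mouse, the median Arg1 to Nos2 ratio was 18.2 in mouse 22, 57.9 in mouse 23, 51.9 in mouse 24 and 20.2 in mouse 26. Over the 22 brain replicates, Arg1 and Nos2 moved in the same direction (Pearson r = 0.728 and Spearman rho = 0.738 on log2 CPM). Since these replicates share 4 mice, the correlation is a description with no test. The Arg1 level per kilobase was 2.69 to 214 times that of Arg2 (median 36.4), with the lowest ratio in GFPneg glioma monocytes of mouse 22. Reads on the Arg2 exons that overlap Vti1b and Gm48780 may have been dropped. The Arg2 level per kilobase may thus be too low and this ratio too high.

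**Figure D2:**
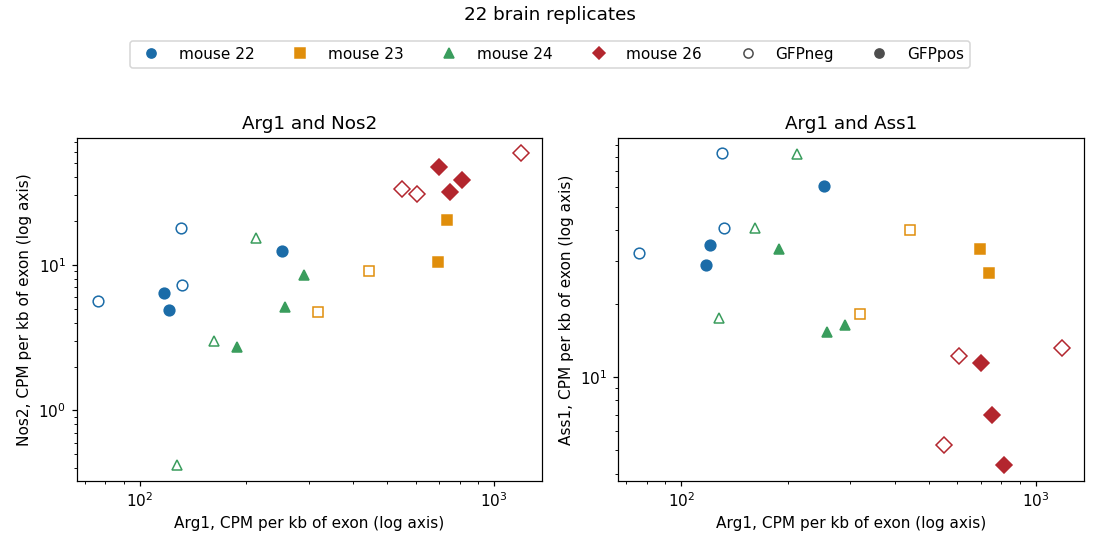
Arg1 against Nos2 (left) and against Ass1 (right) in the 22 brain replicates, as CPM per kilobase of exon on log axes, coloured by mouse, with open marks for GFPneg and filled marks for GFPpos cells. Replicates of mouse 26 lie at high Arg1, high Nos2 and low Ass1, and those of mouse 22 at low Arg1, and r over the replicates was 0.728 for Arg1 with Nos2 and -0.603 for Arg1 with Ass1.

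Slc7a2 encodes a cationic amino acid transporter that brings arginine into macrophages. It lies on chromosome 8 at 40862396 to 40922308 (plus strand), with Gm26584 overlapping an exon on the other strand. Its blood values were 0 counts in 5 of 6 replicates and 218 counts (84.1 CPM) in the Ly6Clow replicate of mouse 23. GFPneg glioma monocytes of mice 22, 24 and 26 had 13, 33.2 and 66.5 CPM and GFPpos glioma monocytes 16.5, 86.5 and 27.4 CPM. These were the lowest means of the brain, at 37.6 ± 27 and 43.5 ± 37.7 CPM (SD, n = 3 each). GFPneg CCR2high macrophages of mice 22, 23, 24 and 26 had 18.9, 80.4, 75.4 and 111 CPM, and GFPpos CCR2high macrophages 31.6, 129, 81.9 and 154 CPM. GFPneg CCR2low macrophages had 29.2, 40.8, 52.7 and 142 CPM, and GFPpos CCR2low macrophages 49.7, 243, 110 and 192 CPM. Mouse 22 was the lowest in each of the 6 brain populations. Against Ly6Chigh monocytes, Slc7a2 was at least 27.7-fold higher in GFPneg glioma monocytes, 52.7-fold in CCR2high and 48.8-fold in CCR2low macrophages (edgeR adjusted p = 0.00581, 0.00156 and 0.00161). Without mouse 26 the bounds were 17-fold, 42.9-fold and 30.2-fold. Against Ly6Clow monocytes no difference was called in the main edgeR fit, which holds mouse 23 (adjusted p = 0.848, 0.402 and 0.456). All 3 were called without mouse 23 (0.00143, 0.000329 and 0.000380). With mouse 23 kept, all 3 were called under spike-in scaling (0.0104, 0.00367 and 0.00440). They were also called with only the first library of each sample (0.00164, 0.000485 and 0.000516), where mouse 23 had 0 counts.

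Ass1, argininosuccinate synthase, begins the remaking of arginine from citrulline, and lies on chromosome 2 at 31470207 to 31520672 (plus strand). Ly6Chigh monocytes of mice 22, 23 and 24 had 8.99, 6.44 and 6.27 CPM, and Ly6Clow monocytes 18.4, 53.6 and 8.88 CPM. GFPneg glioma monocytes of mice 22, 24 and 26 had 200, 199 and 31.6 CPM, and GFPpos glioma monocytes 147, 39.5 and 16.9 CPM. All brain replicates lay above the Ly6Chigh replicates, but they overlapped the Ly6Clow ones. GFPneg CCR2high macrophages of mice 22, 23, 24 and 26 had 98.4, 96.7, 98.4 and 29.3 CPM, and GFPpos CCR2high macrophages 83.6, 80.9, 80.7 and 27.5 CPM. GFPneg CCR2low macrophages had 77.6, 43.9, 42.1 and 12.7 CPM, and GFPpos CCR2low macrophages 69.8, 64.4, 36.8 and 10.5 CPM. Mouse 26, highest for Nos2, was the lowest for Ass1 in each of the 6 brain populations. Ass1 rose against Ly6Chigh monocytes by 4.31 ± 0.91 in GFPneg glioma monocytes, 3.48 ± 0.86 in CCR2high and 2.61 ± 0.83 in CCR2low macrophages (log2, SE, edgeR adjusted p = 0.00148, 0.00471 and 0.0259). The last of these was lost without any of the 3 Ly6Chigh replicates (adjusted p = 0.0666, 0.0973 and 0.107 for mice 22, 23 and 24) and without the CCR2low replicate of mouse 22 (0.0724), and also without a filter on low counts (0.0660), with only the first library of each sample (0.0561) or with spike-in scaling (0.115). Against Ly6Clow monocytes it rose in glioma monocytes by 2.41 ± 0.82 (adjusted p = 0.0393), a call lost without the Ly6Clow or the glioma monocyte replicate of mouse 22 or 24 (0.0943 to 0.107), with the fit limited to the populations compared (0.279), with GFPpos glioma monocytes (0.238) or without a filter (0.0868). Without the Ly6Clow replicate of mouse 23 it was 3.41 ± 0.96 (adjusted p = 0.0186). In CCR2high macrophages the difference from Ly6Clow monocytes was 1.58 ± 0.76 (adjusted p = 0.139), and with mouse as a block in the fit it was called at 2.09 (adjusted p = 0.00131). It was also called with only the first library of each sample (adjusted p = 0.0204) and with spike-in scaling (0.00303), and was 2.56 ± 0.90 without mouse 23 (adjusted p = 0.0528). In CCR2low macrophages the difference from Ly6Clow monocytes was 0.71 ± 0.75 (adjusted p = 0.537), and 1.71 ± 0.87 without mouse 23 (0.187). With the block it was 1.11 (adjusted p = 0.0655), and Ass1 was higher in 2 of 3 mice. This difference was called only with spike-in scaling (adjusted p = 0.0135).

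Odc1, ornithine decarboxylase, makes putrescine, the first polyamine (chromosome 12, 17544794 to 17551505, plus strand). The 6 blood replicates had 0 to 8 counts (0 to 2.37 CPM), and the 22 brain replicates 5.57 to 46.5 CPM, with no overlap. Population means in the brain lay between 14.5 ± 6.3 CPM in GFPneg CCR2high macrophages and 29.4 ± 11.4 CPM in GFPneg CCR2low macrophages (SD, n = 4 each). No neighbours in the order of brain means were free of overlap. Odc1 rose against Ly6Chigh monocytes by 4.85 ± 0.87, 4.40 ± 0.84 and 5.43 ± 0.86 in GFPneg glioma monocytes, CCR2high and CCR2low macrophages (log2, SE, edgeR adjusted p = 0.000256, 0.000396 and 4.12e-05). Against Ly6Clow monocytes it rose by 4.21 ± 0.82, 3.76 ± 0.79 and 4.79 ± 0.81 (adjusted p = 0.000571, 0.00101 and 0.000100). Without the Ly6Clow replicate of mouse 24 these differences were 6.26, 5.82 and 6.84, and each was still called. With spike-in scaling in place of TMM the 3 calls against Ly6Chigh monocytes were lost (adjusted p = 0.0877, 0.104 and 0.0505), and with the fit limited to the populations compared those against Ly6Clow monocytes were lost for glioma monocytes (0.212) and CCR2high macrophages (0.0995).

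Azin1, the antizyme inhibitor that protects Odc1 protein from breakdown, was the 1 member with no call against either blood population in the unpaired test. It lies on chromosome 15 at 38487427 to 38519266 (minus strand), with an exon of Gm49077 on the other strand. Ly6Chigh monocytes had the highest mean of all populations, 121 ± 6 CPM (SD, n = 3), with 128, 115 and 120 CPM in mice 22, 23 and 24. Ly6Clow monocytes had 44.8, 42.0 and 117 CPM, and brain replicates ranged from 42.9 to 147 CPM. No pair of neighbouring populations in the order of means was free of overlap. The differences of the GFPneg brain populations from blood ran from -0.71 ± 0.36 for CCR2high macrophages against Ly6Chigh monocytes to 0.75 ± 0.39 for glioma monocytes against Ly6Clow monocytes (log2, SE), with edgeR adjusted p of 0.190 and 0.188 and none called. With mouse as a block, the CCR2high macrophages were called lower than Ly6Chigh monocytes, at -0.90 (adjusted p = 0.0495). Without the Ly6Clow replicate of mouse 24, the highest of its group, Azin1 was called higher than in Ly6Clow monocytes in glioma monocytes (1.43, adjusted p = 0.00874), CCR2low macrophages (1.17, 0.0199) and Ly6Chigh monocytes (1.55, 0.00698).

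Gatm, the glycine amidinotransferase that starts creatine synthesis from arginine, is on chromosome 2 at 122594467 to 122611303 (minus strand). It was low in Ly6Chigh monocytes of mice 22, 23 and 24, at 14.6, 12.9 and 8.57 CPM, and in Ly6Clow monocytes, at 12.3, 3.08 and 7.69 CPM. GFPneg glioma monocytes of mice 22, 24 and 26 had 458, 548 and 396 CPM and GFPpos glioma monocytes 534, 806 and 451 CPM. The lowest brain value was thus far above the highest blood value. GFPneg CCR2high macrophages of mice 22, 23, 24 and 26 had 867, 1650, 858 and 840 CPM, and GFPpos CCR2high macrophages 1078, 1497, 1227 and 891 CPM. GFPneg CCR2low macrophages had 888, 1021, 719 and 764 CPM, and GFPpos CCR2low macrophages 1073, 1702, 1136 and 850 CPM. All GFPneg macrophage replicates lay above all GFPneg glioma monocyte replicates. Against Ly6Chigh monocytes Gatm rose by 5.30 ± 0.41 in GFPneg glioma monocytes, 6.48 ± 0.43 in CCR2high and 6.16 ± 0.42 in CCR2low macrophages (log2, SE, edgeR adjusted p = 1.58e-09, 5.65e-11 and 8.93e-11). Against Ly6Clow monocytes it rose by 5.94 ± 0.43, 7.11 ± 0.44 and 6.80 ± 0.44 (adjusted p = 2.62e-10, 2.07e-11 and 3.49e-11). Over all alternatives that tested Gatm, the highest adjusted p of these 6 differences was 0.00523.

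Irg1 (annotated as Acod1 on chromosome 14, 103046977 to 103056573, plus strand) had 0, 2 and 0 counts in Ly6Chigh monocytes of mice 22, 23 and 24 and 0, 0 and 13 counts in Ly6Clow monocytes. GFPneg glioma monocytes of mice 22, 24 and 26 had 476, 474 and 402 CPM, the highest group of the 8, and GFPpos glioma monocytes had 475, 259 and 239 CPM. GFPneg CCR2high macrophages of mice 22, 23, 24 and 26 had 240, 182, 136 and 168 CPM and their GFPpos counterparts 252, 185, 178 and 214 CPM. The brain replicates were all above the blood replicates, and the GFPneg glioma monocytes all above the GFPneg macrophages. GFPneg CCR2low macrophages had 150, 140, 136 and 209 CPM, and GFPpos CCR2low macrophages 236, 148, 230 and 150 CPM. Against the 2 counts of the Ly6Chigh replicates, the ratio was 1864 (95% exact Poisson interval 516 to 15390) in GFPneg glioma monocytes, 751 (208 to 6199) in CCR2high and 657 (182 to 5421) in CCR2low macrophages. The edgeR adjusted p were 2.15e-09, 1.02e-08 and 1.11e-08. Against Ly6Clow monocytes Irg1 rose by 8.20 ± 0.70, 6.89 ± 0.66 and 6.70 ± 0.66 (log2, SE, adjusted p = 4.66e-09, 3.54e-08 and 4.27e-08). The 13 Ly6Clow counts all came from mouse 24, and without it the adjusted p were 2.87e-10, 1.57e-09 and 2.27e-09.

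Counted together, 8 of the 9 members were called higher in GFPneg glioma monocytes than in Ly6Chigh monocytes, where 11.1% of the 11566 tested genes were. In CCR2high macrophages 7 members were called higher (12.7% of genes) and in CCR2low macrophages 7 (14.1% of genes), Arg2 and Azin1 being those not called. Against Ly6Clow monocytes 6 members were higher in glioma monocytes (13% of genes), 5 in CCR2high macrophages (14.7%) and 5 in CCR2low macrophages (15%). The 5 called in all 6 of these comparisons were Arg1, Nos2, Odc1, Gatm and Irg1. The members' median log2 difference from Ly6Chigh monocytes in glioma monocytes was 5.30 as fitted, and 4.85 with members at the floor set to their bound or ratio, beside 0.12 for all genes. Arg1, Nos2, Slc7a2, Odc1 and Irg1 passed the filter on low counts only through the brain replicates. That favours a higher brain level in these members, and no support is drawn from the counts. These comparisons share their blood replicates with one another.

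Between the blood populations 1 member was called, where 5.61% of genes were called in either direction. This was Slc7a2, lower in Ly6Chigh monocytes (edgeR adjusted p = 0.0203), and the call rests on the 218 counts of the Ly6Clow replicate of mouse 23: without it both populations were at 0. It was also lost without the Ly6Chigh replicate of mouse 22, 23 or 24 (adjusted p = 0.0600, 0.0835 and 0.111). Arg2 and Ass1 were also highest in that replicate. Their differences, Ly6Chigh less Ly6Clow, were -2.67 ± 1.02 and -1.90 ± 0.85 (log2, SE, adjusted p = 0.120 and 0.186), and -0.03 and -0.86 without it (adjusted p = 1 and 0.709). DESeq2 called Arg2 (adjusted p = 0.0426), as did edgeR without the Ly6Clow replicate of mouse 24 (0.0311). With mouse as a block Ass1 was called (adjusted p = 0.0244).

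Between the brain populations the members were compared within the GFPneg cells, in pairs from the same mouse as well as unpaired. In the unpaired edgeR test no member was called between CCR2high macrophages and glioma monocytes (0.182% of genes called), between CCR2low macrophages and glioma monocytes (1.21%) or between CCR2low and CCR2high macrophages (0%). At an unadjusted p under 0.05 these comparisons gave 3, 4 and 0 members, beside 5.38%, 8.46% and 2.39% of genes. DESeq2 called 2, 2 and 0 members, beside 0.806%, 2.87% and 0.082% of the genes it tested. The replicates of Arg2, Gatm and Irg1 did not overlap between glioma monocytes and either macrophage population. The same held for 11.7% of all tested genes for CCR2high and 13.8% for CCR2low macrophages. With mouse as a block, 4 members were called lower in CCR2low macrophages than in glioma monocytes, where 2.46% of genes were called. The differences were -0.97 ± 0.23 for Arg1, -2.22 ± 0.52 for Nos2, -1.83 ± 0.41 for Ass1 and -3.61 ± 0.87 for Arg2 (log2, SE, adjusted p = 0.0210, 0.0228, 0.0136 and 0.0229). Unpaired, they had adjusted p of 0.968, 0.898, 0.451 and 0.127. Each was lower in 3 of 3 mice, with ratios between glioma monocytes and CCR2low macrophages of the same mouse of 1.66 to 2.16 for Arg1, 1.76 to 36.5 for Nos2, 2.50 to 4.72 for Ass1 and 2.85 to 77.0 for Arg2. Across all tested genes 20.7% were lower in all 3 mice. The GFPneg glioma monocyte values of Arg1 ran from 290 to 2648 CPM between mice, a wider spread than its own ratios within a mouse.

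Irg1 was also lower in CCR2low macrophages than in glioma monocytes in 3 of 3 mice, 1.92 to 3.48-fold, at -1.43 ± 0.43 with the block (adjusted p = 0.0915) and -1.51 ± 0.45 without it (adjusted p = 0.120). With only those populations in the fit it was called (adjusted p = 0.00620). Gatm and Slc7a2 ran the other way. Gatm was higher in CCR2low macrophages in 3 of 3 mice, 1.31 to 1.94-fold (unpaired adjusted p = 0.316, with the block 0.233), and Slc7a2 1.59 to 2.24-fold (0.9999 and 0.946). For CCR2high macrophages against glioma monocytes, Arg2, Nos2, Ass1, Azin1 and Irg1 were lower and Slc7a2 and Gatm higher in 3 of 3 mice, as were 18.9% (lower) and 17.5% (higher) of tested genes. None of these was called with the block, and adjusted p ran from 0.108 for Gatm to 0.9999 for Slc7a2. In CCR2low against CCR2high macrophages Arg1, Arg2 and Ass1 were lower and Odc1 higher in 4 of 4 mice, where 9.5% of genes were lower and 9.1% higher, and none was called with the block (adjusted p = 1 for each). Arg2 was all but equal in mouse 26, at a ratio of 0.978. Dissociation genes summed to 8881 to 14494 CPM in GFPneg glioma monocytes, 4634 to 7152 CPM in CCR2high and 3813 to 6373 CPM in CCR2low macrophages, in the same order as Arg1, Nos2, Ass1, Arg2 and Irg1. Microglia markers ran the other way, at 1167 to 2478, 1723 to 3665 and 2656 to 7509 CPM, and the part of either in these differences was not tested.

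**Figure D3:**
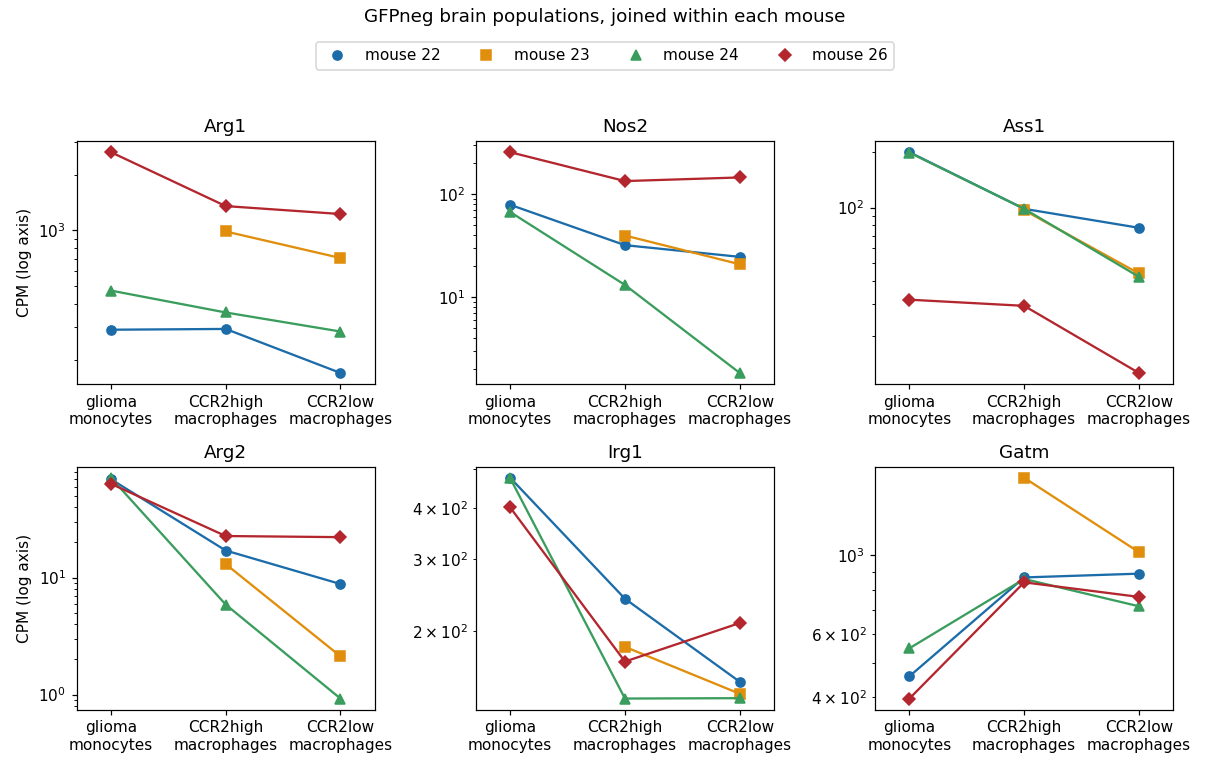
Level of 6 members in the 3 GFPneg brain populations, as CPM on a log axis whose range differs between panels, with the points of a mouse joined (mouse 23 gave no glioma monocytes). From glioma monocytes to CCR2low macrophages the Arg1, Nos2, Ass1, Arg2 and Irg1 values fell in each of the 3 mice and the Gatm values went up, while the mice kept wide gaps for Arg1, from 290 to 2648 CPM in glioma monocytes.

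How far the mice differed was then asked of the 22 brain replicates alone, in a fit with population and mouse as terms that was added after the levels by mouse had been seen. Arg1 ranged from 170 to 561 CPM over the 6 brain replicates of mouse 22, from 284 to 646 CPM in mouse 24, from 709 to 1642 CPM in mouse 23 (4 replicates) and from 1227 to 2648 CPM in mouse 26. The values of mice 22 and 24 overlapped with each other but not with those of mice 23 and 26. Mouse took 88.5% of the variance of Arg1's log2 CPM and population 10.7%, against medians of 22.4% and 25.8% over 11283 tested genes. Nos2 ran from 135 to 257 CPM in mouse 26 and from 1.85 to 89.1 CPM over the other mice, and mouse took 64.7% of its variance. Ass1 ran from 10.5 to 31.6 CPM in mouse 26 and from 36.8 to 200 CPM over the other mice, and mouse took 69.7%. For Slc7a2 the share was 47.8% and for Azin1 33.5%.

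The edgeR F-test of the mouse term called 5 of 9 members, where 19.6% of tested genes were called. These were Arg1 (adjusted p = 4.75e-09), Ass1 (5.21e-06), Nos2 (1.56e-05), Slc7a2 (0.000501) and Gatm (0.000758). Leaving out mouse 26 ended the call for Ass1 (adjusted p = 0.371), leaving out mouse 23 that for Gatm (0.0704) and leaving out mouse 22 that for Slc7a2 (0.556), while Arg1 and Nos2 were called without any mouse. The population term of the same fit was called for 7 members, all but Odc1 and Azin1 (adjusted p = 0.419 and 0.321), where 7.15% of tested genes were called. It took 64.6% of the variance of Irg1 and 60.2% of that of Arg2, where mouse took 9.88% and 11.6%. The sorted samples of a mouse come from 1 animal, so the test compares these 4 animals and whatever was shared in their handling. T and NK cell markers had their lowest median over the brain replicates in mouse 26 (436 CPM, against 713 to 1126 CPM in the others) and so did B cell markers (47.1 CPM against 129 to 319 CPM). Endothelial markers had their highest median in mouse 26 (102 CPM against 23.3 to 58.8 CPM) and neutrophil markers in mouse 24 (892 CPM against 201 to 281 CPM). The part of these lists, and of sex, in the mouse differences was not tested.

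**Figure D4:**
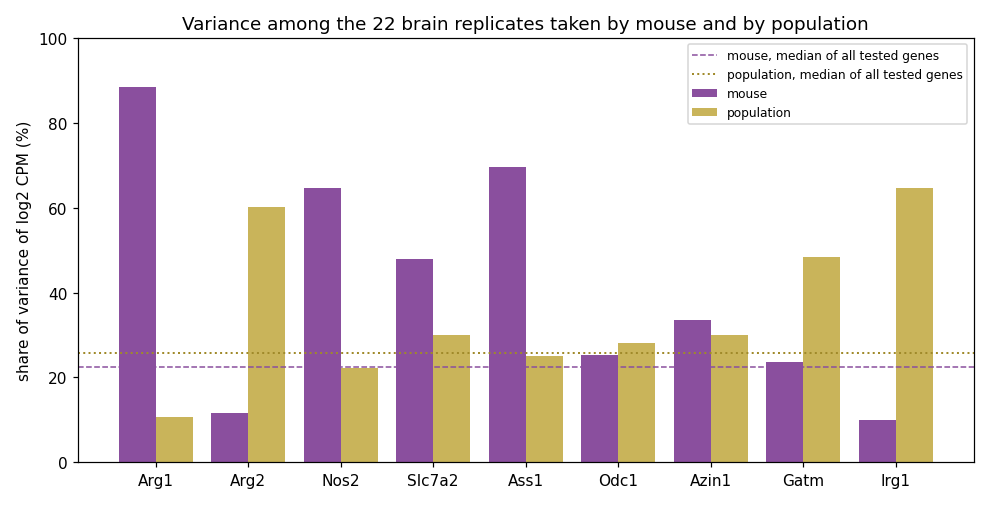
Share of the variance of log2 CPM (in percent) over the 22 brain replicates taken by mouse and by population for each member, with broken lines at the medians of 11283 tested genes (22.4% and 25.8%). Mouse took most of the variance for Arg1 (88.5%), Ass1 (69.7%) and Nos2 (64.7%), and population most for Irg1 (64.6%) and Arg2 (60.2%).

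GFP in a sorted cell marks tumor membrane that it has taken up. No member was called between GFPpos and GFPneg glioma monocytes, CCR2high macrophages or CCR2low macrophages by edgeR, with or without the block, or by DESeq2. The unpaired edgeR test called 0% of all genes in each of these comparisons, and DESeq2 20, 1 and 5 genes. None had an unadjusted p under 0.05 in the unpaired test either. In CCR2low macrophages, Arg1, Nos2, Slc7a2 and Gatm were nevertheless higher in GFPpos cells in 4 of 4 mice, by 1.47 to 2.31-fold, 1.13 to 12.3-fold, 1.36 to 5.95-fold and 1.11 to 1.67-fold. Over all tested genes, 8.86% were higher in GFPpos cells in 4 of 4 mice in that population. With the block, Arg1 differed by 0.86 ± 0.21 on the log2 scale (adjusted p = 0.509). In glioma monocytes Arg2, Nos2, Ass1, Azin1 and Irg1 were lower in GFPpos cells and Odc1 and Gatm higher in 3 of 3 mice, where 16.9% of genes were lower and 16.7% higher. The ratio of GFPpos to GFPneg cells was at most 0.925 for Arg2 and 0.998 for Irg1, so Irg1 was all but equal in mouse 22. The GFPpos replicate of that mouse sums a pair of libraries that differed in Irg1 (186 and 502 CPM without TMM scaling). The direction of Irg1 in mouse 22 is therefore uncertain. Ass1 differed there by -1.18 ± 0.44 with the block (adjusted p = 0.441). In CCR2high macrophages Slc7a2 and Irg1 were higher and Ass1 lower in 4 of 4 mice (6.41% of genes higher and 6.92% lower), with adjusted p of 1 with the block. The Irg1 ratio there was 1.01 at its lowest.

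The rest of the pathway was read in the same comparisons. A list of 65 further genes of arginine transport, the urea cycle, proline, nitric oxide, polyamine, creatine and itaconate metabolism was counted in the same way, and 53 of them were tested. Of these 53, 4 were higher and 1 lower in GFPneg glioma monocytes than in Ly6Chigh monocytes, 8 and 0 in CCR2high macrophages, and 8 and 2 in CCR2low macrophages. Against Ly6Clow monocytes the counts were 6 higher and 2 lower, 10 and 3, and 8 and 4. The shares called higher, 7.55% to 18.9%, stand beside 11.1% to 15% of all genes. Without the Ly6Clow replicate of mouse 23, the counts against Ly6Clow monocytes were 4 higher and 0 lower, 7 and 2, and 7 and 2. No gene of the list was called between brain populations or by GFP, and 2, Paox and Gamt, were called higher in Ly6Chigh than in Ly6Clow monocytes, also without that replicate (adjusted p = 0.0176 and 0.00944).

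Among transporters, Slc3a2, the heavy chain that carries several amino acid transporters to the membrane, rose in all 6 comparisons, with and without the Ly6Clow replicate of mouse 23. It went from 70.0 ± 8.5 CPM in Ly6Chigh monocytes (SD, n = 3) to 479 ± 146 CPM in GFPneg glioma monocytes (n = 3) and 360 ± 80 CPM in CCR2high macrophages (n = 4), a difference of 2.78 ± 0.38 for the former (log2, SE, edgeR adjusted p = 8.25e-06). The urea cycle had 1 tested gene of 5, Asl, which follows Ass1, at 40.4 to 65.2 CPM in blood and 35.7 to 121 CPM in brain with no call. Cps1 and Otc, which complete the cycle in liver, had at most 2.59 CPM in any brain replicate and 0 in blood. In the ornithine to proline branch, Aldh18a1, which makes the proline precursor, rose from 29.8 ± 17.1 CPM in Ly6Chigh monocytes to 111 ± 22 CPM in CCR2low macrophages (1.91 ± 0.60, adjusted p = 0.0235). The other called genes of transport and of this branch had means under 10 CPM.

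Among 9 tested genes of nitric oxide and its cofactor tetrahydrobiopterin, Qdpr, which regenerates the cofactor, rose in CCR2high macrophages (73.1 ± 16.7 against 34.6 ± 10.8 CPM, 1.08 ± 0.34, adjusted p = 0.0259). Ddah2, which breaks down an inhibitor of nitric oxide synthases, rose in all 3 brain populations against Ly6Chigh monocytes and reached 13.7 ± 4.5 CPM in CCR2low macrophages. In the polyamine group genes were called in both directions. Paox, an oxidase of acetylated polyamines, rose against Ly6Clow monocytes in all 3 brain populations, from 0.848 ± 1.09 CPM to between 18.9 ± 4.3 and 30.2 ± 11.6 CPM, with adjusted p of at most 0.000768 without mouse 23. Smox, spermine oxidase, rose from 20.5 ± 21.2 CPM to 204 ± 63 CPM in glioma monocytes (3.30 ± 0.71, adjusted p = 0.00173, and 0.00131 without mouse 23). Its calls in CCR2high and CCR2low macrophages (adjusted p = 0.0344 and 0.0300) were lost without that replicate (0.0727 and 0.0616), as were those of Srm, spermidine synthase (0.0350 and 0.0332, then 0.110 and 0.108). Amd1, which makes the aminopropyl donor, fell in glioma monocytes against Ly6Chigh monocytes, from 46.4 ± 4.8 to 11.6 ± 6.4 CPM (-2.01 ± 0.56, adjusted p = 0.0162). Its calls against Ly6Clow monocytes were lost without mouse 23 (adjusted p = 0.0928, 0.342 and 0.464), whose replicate had 107 CPM against a mean of 27 CPM in the others. Sat1, which acetylates spermidine and spermine, fell against Ly6Clow monocytes in all 3 brain populations (adjusted p = 0.0138, 0.000833 and 9.12e-05). Without mouse 23 it was still called in CCR2high and CCR2low macrophages (0.00662 and 0.000851) but not in glioma monocytes (0.0755). Oaz2, an antizyme, fell in CCR2low macrophages (-1.21 ± 0.43, adjusted p = 0.0434, and 0.0132 without mouse 23), and in CCR2high macrophages it was called without mouse 23 alone (0.113, then 0.0381). Both are named here after their values were seen. Amd1 reads may be shared with the near-identical Amd2, so its level is uncertain.

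In the creatine branch, Ckb, creatine kinase B, rose against Ly6Chigh monocytes in CCR2high and CCR2low macrophages, from 98.3 ± 36.6 to 331 ± 96 and 420 ± 76 CPM (edgeR adjusted p = 0.0404 and 0.0139). Gamt, which completes creatine synthesis after Gatm, rose in all 3 brain populations against Ly6Clow monocytes, from 3.45 ± 4.11 to 14.2 ± 1.7, 16.1 ± 5.6 and 15.6 ± 3.0 CPM, and the call in glioma monocytes was lost without mouse 23 (adjusted p = 0.0642). It was also higher in Ly6Chigh than in Ly6Clow monocytes (24.9 ± 1.8 CPM, adjusted p = 0.0141). Of the 12 genes beside itaconate in the citric acid cycle and its breakdown, all were tested and 1 was called in these comparisons. Clybl, which acts in itaconate breakdown, rose in CCR2high and CCR2low macrophages against Ly6Chigh monocytes (7.68 ± 2.44 to 25.6 ± 3.2 and 27.1 ± 4.0 CPM, adjusted p = 0.0206 and 0.0142).

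**Figure D5:**
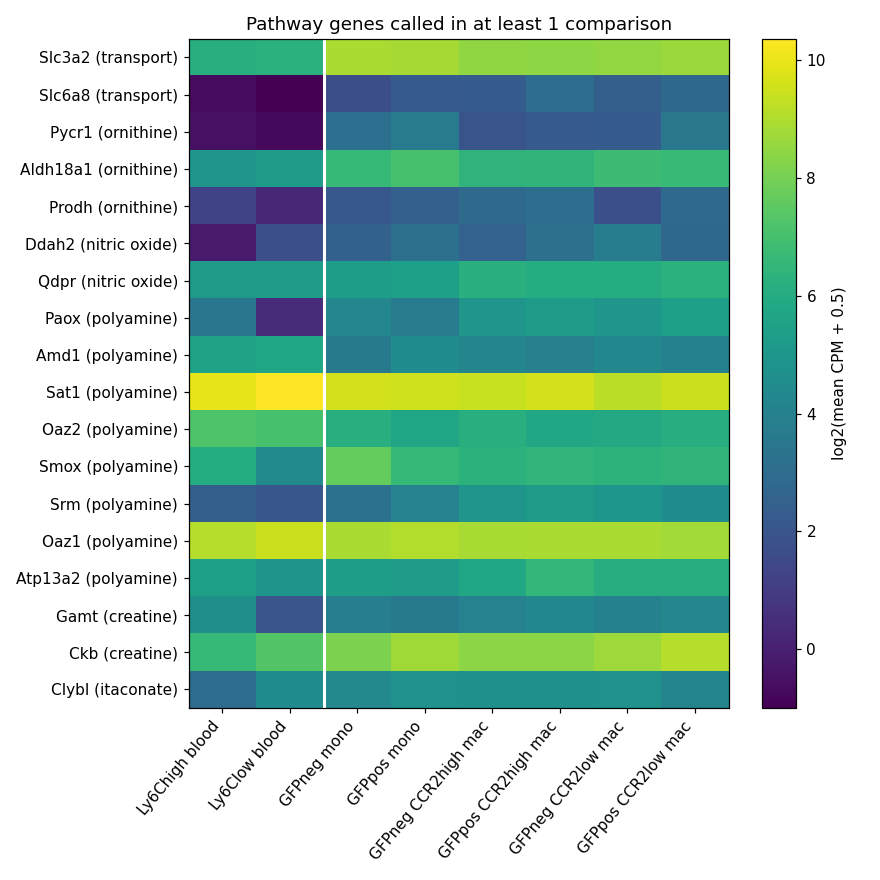
Mean level, as log2(CPM + 0.5), of 18 pathway genes called in at least 1 comparison, in 8 populations (n = 3 for monocytes, n = 4 for macrophages), with the white line between blood and brain. Slc3a2, Aldh18a1 and Ckb are brighter in the brain columns, Amd1 is darker, and Paox and Gamt are darkest in Ly6Clow blood, at 0.848 and 3.45 CPM.

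The genes most like 4 of the members over the 22 brain replicates were found by the Spearman correlation of log2 CPM, given as a description since the replicates share 4 mice. Arg1 was most like Reps2 (0.903), Mmp3, Scd2, Pgm2 and Ldha (0.85). Nos2 was most like Pkm (0.951), Slc2a1, Gys1, Slc43a2 and Fn1 (0.916). The list of Nos2 holds the glucose transporter gene Slc2a1 and the glycolysis gene Pkm, and that of Arg1 holds the glycolysis gene Ldha. Slc7a2 was most like Mrc1 (0.816), Vps39, Ms4a14, Mmp12 and Map4 (0.779), with Mrc1 the mannose receptor of macrophages. Irg1 was most like Cxcl10 (0.857), Fcgr1, Gbp3, Ptgir and Npc2 (0.828), of which Cxcl10, Fcgr1 and Gbp3 are known to respond to interferon. The lists of the 4 genes had no gene in common. Among the members themselves, Arg2 followed Irg1 (rho = 0.66) and Nos2 (rho = 0.683), whereas Ass1 ran against Arg1 (rho = -0.606) and Slc7a2 (rho = -0.583).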

How the data were processed

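The authors deposited whole-number read counts per gene for 30 libraries, without normalization, and 0 columns were left unused. Per the labels and the study's methods, the reads were aligned to the mouse genome (GRCm38.p3), duplicates were removed with Picard 1.8.4 and reads within a single gene were counted with HTSeq. No strand setting is given in the sources used here, so reads of genes that overlap on opposite strands cannot be told apart, and reads dropped as duplicates or for lying on overlapping genes enter no level. Reads on no gene (6.29% to 17.4% of a library) and on overlapping genes stayed out of library sizes.

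A library had to show 5 or more reads on at least 6000 genes, as the study required, which removed 1, and a pair of libraries of GFPpos glioma monocytes of mouse 22 was summed, which left 28 replicates. The study gives n = 3 for each cell type after its quality control, whereas 4 mice are kept here in each macrophage population. The replicates are thus not the same set as the study's. The quasi-likelihood test of edgeR 4.0.16 (R 4.3.3, robust, filterByExpr, TMM scaling) was run in 1 fit over 8 populations, with Benjamini-Hochberg adjustment over 11566 genes and a call at 0.05. Log2 CPM used edgeR's prior count. Folds against a population at 0 use a floor of 3 counts per library. All 9 members passed the filter. Samples of a mouse are paired by the animal number in their titles: the correlation of their deviations from the group means was 0.0758 to 0.674 between brain populations and -0.0971 to 0.0658 between brain and blood. Alternatives were other scaling (DESeq2 size factors, spike-ins), DESeq2 1.42.0, other filters, other libraries, the mouse block, fewer populations, GFPpos cells and leaving out each replicate. The mouse term, and pathway calls without the Ly6Clow replicate of mouse 23, were added after the data had been seen. The scripts were tested on simulated data. Positions and exon lengths are from GENCODE vM21 (GRCm38), by symbol.

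The members, the pathway and marker lists and the tests were chosen with earlier results of these data known. Pathway genes named are, per role, up to 4 called genes with the largest difference and a mean of at least 10 CPM in a compared population. The values of 1 such gene are not reported here.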

Additional observations from a re-analysis of the deposited data

Results flagged for a closer look

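In 5 of 36 combinations of a member and a macrophage population (4 replicates each), the highest or lowest replicate stood apart from the rest by Dixon's criterion, which chance meets in about 1 of 20 groups. Mouse 26 gave 3 of these: the highest Nos2 value of GFPneg CCR2low macrophages (146 CPM) and the lowest Ass1 values of GFPneg and GFPpos CCR2high macrophages (29.3 and 27.5 CPM). The lowest Odc1 value of GFPpos CCR2high macrophages (5.57 CPM) was that of mouse 22. The highest Gatm value of GFPneg CCR2high macrophages (1650 CPM) was that of mouse 23.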

How the results depend on the processing

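Over the 39 called differences between a member's levels in 2 populations, 579 of the values under alternatives kept direction and call, 32 lost the call, and 0 changed sign. Of the 32, 30 kept direction and 2 were at a difference of 0 (Slc7a2 between the blood populations, with the first libraries or without the Ly6Clow replicate of mouse 23). With at least 10 counts required in every library only Ass1 and Azin1 were tested, and calls fell to 1 against Ly6Chigh monocytes in each GFPneg brain population, to 1, 0 and 0 against Ly6Clow monocytes in glioma monocytes, CCR2high and CCR2low macrophages, and to 0 between the blood populations. Between the blood populations the 1 called member became 0 without a filter, with the first library of each sample or with spike-in scaling, and 2 with DESeq2 or the mouse block. With only the compared populations 0 were called, since Slc7a2 did not pass the filter on the blood replicates alone and was not tested. For CCR2high macrophages against glioma monocytes, 0 became 2 with DESeq2 (Gatm higher, Irg1 lower) and 2 with only the compared populations (Arg2 and Irg1 lower). For CCR2low macrophages against glioma monocytes, 0 became 2 with DESeq2 (Arg2 and Irg1 lower), 4 with the replicate block and 1 with only the compared populations. The causes were not tested, beyond the fewer genes or samples that these settings hold. The block changed no other call than those given beside the results. Leaving out 1 replicate gave 0 to 3 called members between the blood populations, 7 to 8, 7 and 6 to 7 against Ly6Chigh monocytes for glioma monocytes, CCR2high and CCR2low macrophages, 5 to 8, 5 to 6 and 5 to 7 against Ly6Clow monocytes, and 0 to 1 for CCR2low macrophages against glioma monocytes. Leaving out 1 mouse gave 4 to 5 members for the mouse term. These counts of called members stand without the share of all genes called under each setting, and no support is drawn from them. Spike-in scaling moved the median log2 difference of all genes from 0.24 to 1.70 in glioma monocytes against Ly6Clow monocytes. The floor of 3 counts per library stood for 0.683 to 1.77 CPM in Ly6Chigh monocytes, and levels below it were not detectable.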
